A study of Mus musculus with 90 samples.

Results

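Spleen was compared with the other 14 tissues of a transcriptome survey of female mice. The 6 spleen libraries, of 90 in all, came from 3 mice in estrus and 3 in diestrus, the phases of the cycle with and without sexual receptivity. They were set against the means of cerebrum and hypothalamus, aorta, vein and heart, stomach, duodenum and liver, kidney, skeletal muscle, ovary and uterus (labelled Womb), and brown and white adipose tissue (BAT and WAT). Each of these means was taken over the 6 libraries of a tissue on the log2(FPKM + 1) scale, except for BAT, where 5 libraries were used. FPKM divide the fragments of a gene by its length and by the size of the library, so they allow levels of different genes to be compared. The genes chosen are the 12536 of 20414 listed with a mean of at least 1 FPKM in spleen, and a few genes under that level, such as Pcsk6 and Cxcl14, are given for being below each other tissue.

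All mice were females, given in the labels as C57BL/6 and 10 weeks old, and staged by vaginal cytology. No genotype or treatment differs between the groups. Each value is an average over all cells of a tissue sample, and in such bulk samples fewer cells of a type and less RNA per cell cannot be told apart. The labels do not tie the tissues of 1 mouse together, so p-values measure the spread between these libraries only. The model gives each gene a single spread shared by all tissues. Standard errors (SE) and p-values thus do not measure the spread between spleens alone.

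The spleen filters blood and is also a lymphoid organ. In its white pulp, B cells lie in follicles and T cells around the arterioles, each drawn there by chemokines that stromal cells make. Red pulp macrophages take up old red cells and return their iron, macrophages of the marginal zone trap particles from the blood, and in mice the red pulp also forms red cells, granulocytes and platelets throughout life.

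The depth of the spleen libraries, approximated from the smallest steps between values, was 13.7M to 15.3M reads, against 3.62M to 15.9M in the 83 other libraries used. In the spleen libraries, 3282 to 3487 genes were listed at 0. Pearson's r of log2(FPKM + 1) between 2 spleen libraries was 0.978 to 0.996, with a median of 0.993. Spleen estrus replicate 2 stood apart, with a mean r of 0.981 to the others, where the others had 0.991 to 0.992. It held pancreatic RNA: the summed level of 30 listed genes of pancreatic acinar cells was 11230 FPKM in this library and 13.7 to 42.1 FPKM in the other 5. It was also the highest library by a wide gap for 45 of the 12536 genes. Such a gap had to pass Dixon's test and be at least 1 log2 unit to the next library. The 45 genes include digestive enzymes, other pancreatic genes such as Reg1 and Zg16, and granulocyte genes such as Ltf, Lcn2, Cd177 and Ly6g. By both conditions no other spleen library was so high for any gene. Some of the 45 genes, such as Amy2b and Prss3, were at 0 in the other 5 spleens and reached a mean of 1 FPKM only through this library. Results that rest on this library are given below with and without it.

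A gene was counted as higher or lower in spleen where the difference to the mean of the 14 tissue means was at least 1 on the log2 scale and the adjusted p (limma, Benjamini-Hochberg over 17279 genes with 1 FPKM or more in any tissue) was at most 0.05. By this measure 3611 genes were higher in spleen, which is 20.9% of the genes fitted and 28.8% of those with 1 FPKM in spleen. Of the genes fitted 2699 were lower (15.6%), and 1353 of these had 1 FPKM or more in spleen (10.8% of the 12536). The filter of 1 FPKM in spleen favours genes high in spleen, since it kept all 3611 higher genes and 1353 of the 2699 lower. Among the called genes that it kept, the share of higher genes was 72.7%. Other scalings moved this share to 54.0% (2433 higher and 2075 lower, each library scaled to the same median) and 60.9% (2785 and 1787, quantile normalization), and the median scaling moved the median difference of all genes from -0.01 to -0.36.

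A stricter question is which genes were above every other tissue. With all 14 differences at least 1 and the largest of the 14 p-values adjusted to at most 0.05, 829 genes were above each of the 14 tissues, 4.8% of the genes fitted and 6.61% of those with 1 FPKM in spleen. The nearest tissue, the one with the highest mean of the 14, was a median of 2.02 log2 units below spleen for these genes. The distance was at least 3 for 219 of them and at least 5 for 17. All 6 spleen libraries were above all 83 others for 756 of the 829, where 7.84% of all genes fitted and 10.8% of the 12536 had no overlap in this direction. Without estrus replicate 2, 805 of the 829 remained called. The median scaling kept 631 of them and quantile normalization kept 713.

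The 829 genes took 17.3% of the summed FPKM of spleen, 15.7% to 19.9% in single libraries. In the other tissues the same genes took between 0.482% in skeletal muscle and 2.61% in vein. The 30 most abundant genes of spleen took 19.8% of its summed FPKM, and most of them encode ribosomal proteins and other parts that all cells use. Only 4 of these 30 were above each other tissue: the globin genes Hba-a1, Hbb-bs and Hbb-bt, and Cd74, the chain that accompanies MHC class II molecules to the endosome.

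Duodenum was the nearest tissue for 305 of the 829 genes (36.8%), although it was the highest of the 14 for only 9.36% of all genes fitted. Vein was nearest for 72 (8.69%, against 2.69% of all genes). Ovary had the highest mean r with spleen across genes, 0.765, and was nearest for 106 (12.8%, against 19.5%). One library of duodenum and one of vein stood high for B cell genes. The summed level of 31 B cell genes was 1311 FPKM in duodenum estrus replicate 1 and 109 to 291 FPKM in the other 5 duodenum libraries. In vein it was 524.5 FPKM in estrus replicate 3 and 49.4 to 75.7 FPKM in the other 5. Leaving out either library, an alternative chosen after these values were seen, kept 827 and 826 of the 829 genes.

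**Figure D1:**
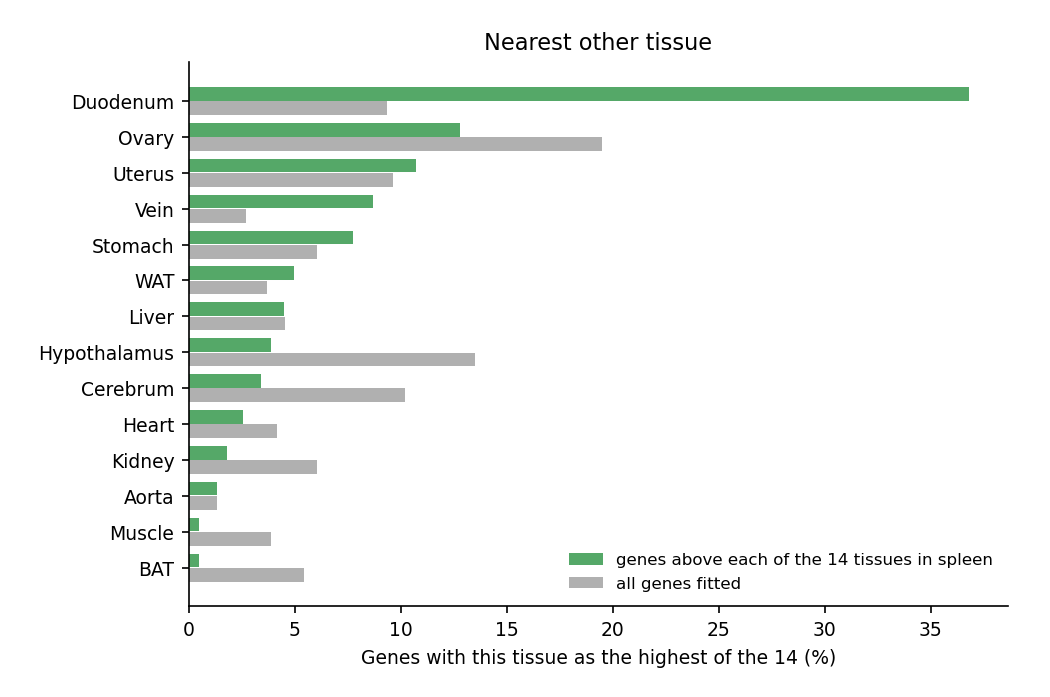
For each of the 14 other tissues, the share of genes (%) for which it was the highest of the 14, among the 829 genes above each tissue in spleen (green) and among all genes fitted (grey). Duodenum was the nearest tissue for 36.8% of the green set and 9.36% of the grey, while cerebrum and hypothalamus had smaller shares in the green set.

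With all spleen libraries in the fit, the genes farthest above their nearest tissue were mostly genes of B cells and of neutrophils. Of the leading 12, 9 are described here. Fcmr, a receptor for IgM, was at 307.6, 252.7 and 334.7 FPKM in the estrus spleens and at 310.6, 347.6 and 293.5 FPKM in the diestrus spleens. In duodenum it was at 0.08 to 55.6 FPKM, median 3.06, so that even the highest library outside spleen was below each spleen library. The log2 difference was 6.20 ± 0.45 (SE, adjusted p = 1.27e-20, limma). Ms4a1, the B cell antigen CD20, was at 242.7 to 327.8 FPKM, against 0.38 to 53.0 FPKM in duodenum. It differed by 5.93, and the others were the B cell genes Cr2 (5.72), Siglecg (5.49), Pax5 (5.41) and Cd22 (5.39), and the neutrophil genes Ngp (5.41), Camp (5.37) and S100a8 (5.29), with the log2 difference to the nearest tissue in parentheses. Without estrus replicate 2, 8 of the leading 12, 49 of the leading 50 and 97 of the leading 100 remained in lists of the same size, and the largest change of a difference was 0.42, for Ngp. That library was the highest spleen library for Ngp and S100a8, so the lead of these neutrophil genes rests in part on it.

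**Figure D2:**
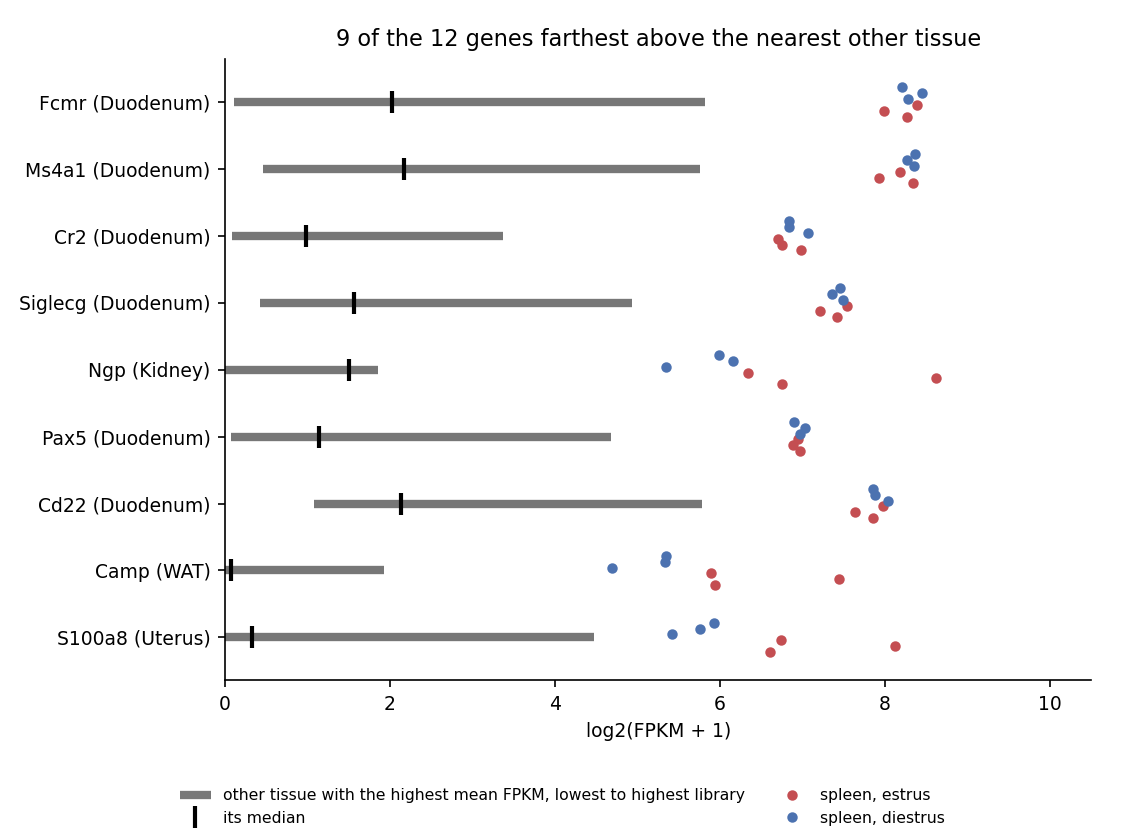
Expression as log2(FPKM + 1) of 9 of the 12 genes farthest above the nearest other tissue: points are the 6 spleen libraries (red estrus, blue diestrus), and the bar is the other tissue with the highest mean FPKM, from its lowest to its highest library with a tick at the median. The spleen points lie within a narrow range for the B cell genes and spread widely for Ngp, Camp and S100a8.

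The label was checked with 18 genes that mark the compartments of the spleen. All 18 were higher in spleen than the mean of the other tissues, with a median difference of 5.24 where that of all genes fitted was -0.01, and 14 were above each tissue. The other 4 were Cd5l (highest in liver), Slc40a1 and Nkx2-3 (highest in duodenum) and Pf4, which was 0.62 above WAT and not called. Their summed level was 2760 to 3108 FPKM in spleen, and the highest library outside spleen reached 646.8 FPKM. Genes of other cells that a dissection could include had lower sums: 105.4 to 184.0 FPKM for 10 smooth muscle genes, 26.3 to 59.5 FPKM for 10 adipocyte genes, 4.02 to 20.8 FPKM for 10 mesothelium genes and 2.7 to 6.19 FPKM for 10 hepatocyte genes. The exception was the sum of pancreatic acinar genes in estrus replicate 2, at 11230 FPKM.

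Of 31 B cell genes, 30 were above each other tissue and all 31 were higher than the mean, with a median difference of 6.33. Beside the counts of this and the later lists stand the shares over all genes fitted. These were 20.9% higher than the mean, 15.6% lower and 4.8% above each tissue. Their summed FPKM was 4980 in estrus replicate 2 and 5662 to 6271 in the other 5 spleens. Cd79a and Cd79b encode the signalling chains of the antigen receptor. Cd79a was at 819.9 to 1116 FPKM and 4.60 ± 0.44 above duodenum. Cd79b was at 466.2 to 488.7 FPKM in 5 spleens and at 397.0 FPKM in estrus replicate 2, and 4.99 ± 0.38 above duodenum. Cr2, the complement receptor of follicular and marginal zone B cells, was at 103.2 to 132.7 FPKM against 0.06 to 9.35 FPKM in duodenum. Fcer2a, the low-affinity IgE receptor of follicular B cells, was at 127.4 to 186.7 FPKM. The 1 exception was Ebf1, an early B cell factor that adipose tissue also uses. It was at 25.7 to 32.7 FPKM in spleen and 22.7 to 34.4 FPKM in WAT, a difference of 0.04 ± 0.21 that was not called.

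The 5′ regions of genes above each tissue were described by short motifs that factors of blood cells are known to bind. The windows run from 250 bases before to 50 bases after a gene's start (RefSeq, GRCm38.p6), and 636 of the 829 genes matched, with 801 windows. The letters searched, on both strands and with none contained in another, were ATGCAAAT (the octamer of Oct factors), GAGGAAGT (bound by PU.1), CCACACCC (KLF1) and AGATAA (factors such as Gata1). GAGGAAGT was found in 10.1% of the 801 windows and in 3.2% of all 32851, and in 8 of 22 windows of neutrophil genes (36.4%). Of the 30 windows of B cell genes, 3 held GAGGAAGT (10.0%), near the 10.1% of the 801. The octamer was found in 2.12% against 1.74% of all, and in 2 of 30 windows of B cell genes. For CCACACCC the shares were 5.62% and 3.56%, and for AGATAA they were 11.4% and 11.2%. Among the windows of genes fitted the 4 motifs had shares of 1.48% (octamer), 3.04% (GAGGAAGT), 3.85% (CCACACCC) and 7.64% (AGATAA), and for genes of 1 FPKM or more in spleen that of AGATAA was 6.86%. A match describes the letters only and is not a measured site. The windows of 4 B cell genes are shown, since 2 hold the octamer and 2 the PU.1 letters, in capitals on either strand, in a list whose members were nearly all above every other tissue. They are Blnk (chr19:40994172-40994471, minus strand), Vpreb3 (chr10:75948050-75948349, plus strand), Cd37 (chr7:45238790-45239089, minus strand) and Cd72 (chr4:43454577-43454876, minus strand), each printed 5′ to 3′ along the gene.
Blnk: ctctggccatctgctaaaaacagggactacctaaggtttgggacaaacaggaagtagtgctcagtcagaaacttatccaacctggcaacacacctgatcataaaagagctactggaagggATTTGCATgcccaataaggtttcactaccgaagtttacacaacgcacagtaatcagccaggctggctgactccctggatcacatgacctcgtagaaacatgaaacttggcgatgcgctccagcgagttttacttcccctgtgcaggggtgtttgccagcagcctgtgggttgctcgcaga
Vpreb3: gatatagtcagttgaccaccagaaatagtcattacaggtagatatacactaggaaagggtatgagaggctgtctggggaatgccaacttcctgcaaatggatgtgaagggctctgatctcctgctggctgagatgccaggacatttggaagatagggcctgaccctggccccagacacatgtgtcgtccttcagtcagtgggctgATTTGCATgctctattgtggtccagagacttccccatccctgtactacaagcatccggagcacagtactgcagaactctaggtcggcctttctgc
Cd37: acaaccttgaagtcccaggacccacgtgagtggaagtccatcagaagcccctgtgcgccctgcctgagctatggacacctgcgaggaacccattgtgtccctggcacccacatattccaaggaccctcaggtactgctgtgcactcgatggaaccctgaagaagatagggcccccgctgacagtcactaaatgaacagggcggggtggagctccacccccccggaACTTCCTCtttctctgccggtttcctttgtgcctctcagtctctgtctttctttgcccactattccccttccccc
Cd72: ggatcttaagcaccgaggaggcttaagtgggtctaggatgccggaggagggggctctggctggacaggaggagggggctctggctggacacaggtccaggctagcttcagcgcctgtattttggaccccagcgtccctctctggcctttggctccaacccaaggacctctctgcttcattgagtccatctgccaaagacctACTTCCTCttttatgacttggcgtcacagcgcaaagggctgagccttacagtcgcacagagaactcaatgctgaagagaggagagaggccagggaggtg

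Those 4 genes were not alike in their levels outside spleen. Cd37, a tetraspanin of mature B cells, was at 439.6 to 563.5 FPKM in spleen and 5.06 ± 0.37 above duodenum. Cd72, an inhibitory receptor of B cells, was at 150.3 to 190.2 FPKM and 4.01 above duodenum. Blnk, an adaptor of the antigen receptor, was at 93.1 to 110.4 FPKM and only 1.84 above duodenum, where it was at 22.7 to 33.7 FPKM. Vpreb3 was at 41.4 to 55.4 FPKM in spleen, yet 1 uterus library reached 117.3 FPKM while the median uterus library had 0.115 FPKM. Vpreb3 was nearest to ovary, 2.42 below spleen.

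Of 30 T cell genes, 28 were above each tissue and all 30 were higher than the mean, with a median difference of 4.49. Cd3e, of the T cell receptor complex, was at 58.6 to 89.8 FPKM and 2.76 ± 0.29 above duodenum. Cd4 was at 68.7 to 92.2 FPKM and 3.46 ± 0.36 above duodenum, and Cd8a was at 41.9 to 47.1 FPKM and 2.27 ± 0.24 above it. Duodenum, whose epithelium holds many T cells, was thus less far from spleen for Cd8a than for Cd4, which was not tested. Ccr7, the receptor that leads naive T cells into T cell areas, was at 59.3 to 85.0 FPKM and 4.92 ± 0.31 above duodenum. Foxp3, the factor of regulatory T cells, was at 7.85 to 12.2 FPKM against 0.24 to 1.45 FPKM in duodenum. The other 2 genes of the list were Thy1 and Bcl11b, which neurons also use. Thy1 was at 148.9 to 191.9 FPKM in spleen and 492.3 to 576.7 FPKM in cerebrum. Bcl11b was at 11.7 to 18.5 FPKM in spleen and 14.7 to 24.6 FPKM in cerebrum, which overlapped, and the difference of -0.36 ± 0.24 was not called.

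Many genes of natural killer and other cytotoxic cells were above each other tissue in spleen, while Gzma and Gzmb were higher in duodenum. Of 24, 23 were higher than the mean of tissues and 15 above each, with a median difference of 1.95. The count above each was 12 under both the median and the quantile scaling. Il2rb, a chain of the receptors for IL-2 and IL-15, was at 40.0 to 55.5 FPKM and 3.04 ± 0.23 above duodenum. Klrk1, which encodes the activating receptor NKG2D, was at 16.2, 15.5 and 8.61 FPKM in the estrus spleens and 8.08, 7.15 and 13.8 FPKM in the diestrus spleens. Ncr1, which marks natural killer cells, was low at 1.84 to 5.31 FPKM, 1.13 ± 0.12 above uterus, and 0.68 and 0.81 above under the median and quantile scalings, where it was not called. Gzma and Gzmb, granzymes of cytotoxic granules, were lower in spleen than in duodenum. Gzma was at 20.2, 20.6, 5.17, 8.75, 6.59 and 21.1 FPKM in spleen, in the same order, and at 44.3 to 176.2 FPKM in duodenum, 2.85 ± 0.30 above spleen. For Gzmb the difference was 2.79. Gzmk, another granzyme, had means of 4.17 FPKM in spleen and 4.07 FPKM in duodenum.

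Of 12 plasma cell genes, 7 were higher than the mean and 2 above each tissue (16.7%, against 4.8% of genes fitted). These were Mzb1, a chaperone of antibody assembly, at 136.3 to 158.0 FPKM and 2.24 ± 0.30 above duodenum, and Irf4, a factor of plasma cell differentiation, at 20.4 to 25.9 FPKM. Irf4 was 1.05 above BAT in the log mean, while 1 aorta library reached 24.7 FPKM, and it was not called under the median and quantile scalings, where 1 gene of the list remained above each tissue. Jchain, the joining chain of IgA and IgM, was at 338.5 to 541.2 FPKM in spleen and 161.7 to 1501 FPKM in duodenum. The groups overlapped and the difference of -0.68 ± 0.43 was not called. Sdc1 and Xbp1, also used by epithelia, both had their highest mean FPKM in stomach.

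**Figure D3:**
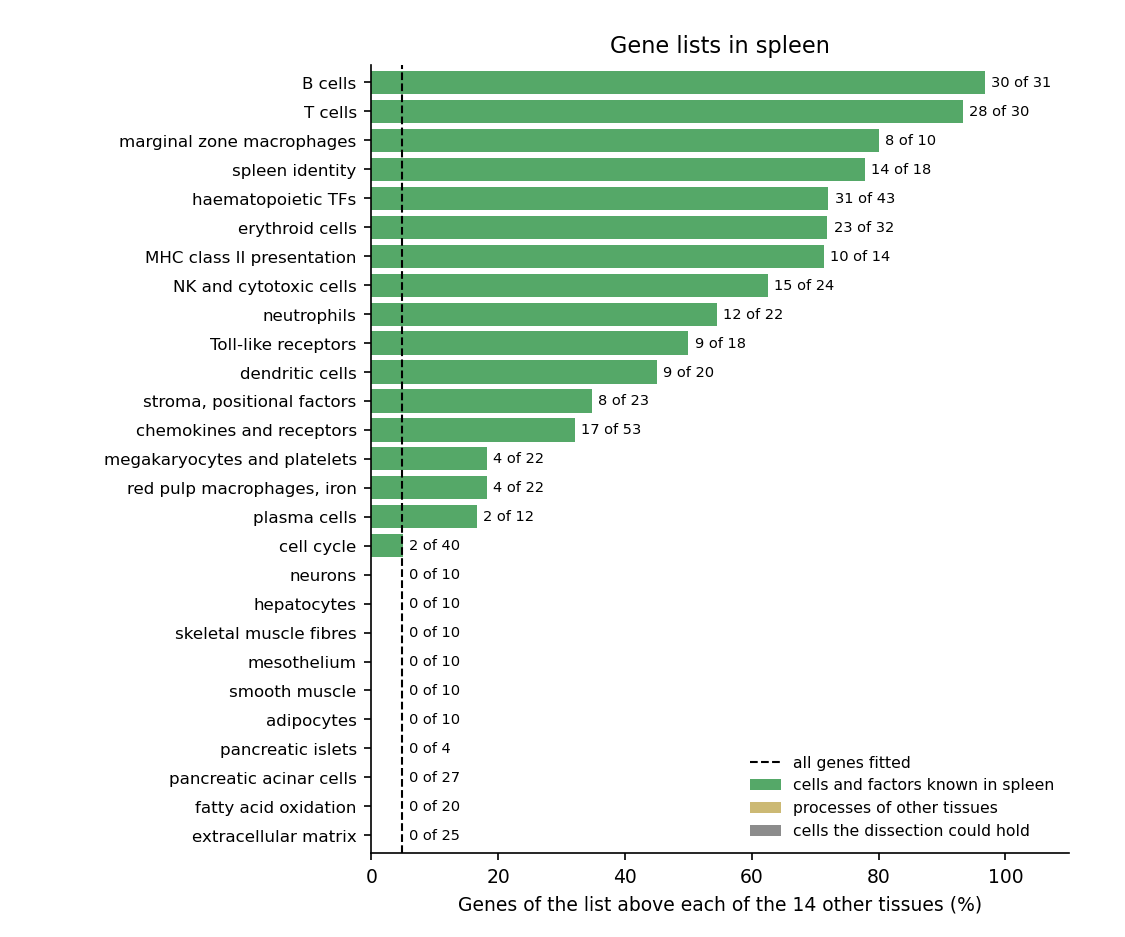
Share of each gene list above each of the 14 other tissues (%), with counts beside the bars and a dashed line at the 4.8% of all genes fitted. The B cell and T cell lists reached 96.8% and 93.3%, that of the cell cycle lay near the line, and lists of cells from other organs had 0 genes above each tissue.

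Genes of red pulp macrophages included some above each tissue, among them the factor that defines the cells. Of 22 genes of these cells and of iron recycling, 14 were higher than the mean and 4 above each tissue (18.2%, against 4.8% of genes fitted): Spic, Vcam1, Itgad and Hmox1. Spic, the factor that red pulp macrophages require, was at 74.0, 76.0 and 38.2 FPKM in the estrus spleens and 43.6, 43.7 and 61.1 FPKM in the diestrus spleens. It did not exceed 3.79 FPKM in any other library, and the difference to ovary was 4.09 ± 0.17 (adjusted p = 1.52e-35, limma). Vcam1, an adhesion molecule, was at 65.6 to 123.0 FPKM and 2.70 ± 0.20 above vein. Itgad, an integrin chain of these macrophages, was at 3.51 to 15.5 FPKM and 2.63 ± 0.11 above duodenum. Hmox1, which opens the haem ring, was at 178.4, 189.0, 64.6, 84.3, 98.0 and 122.4 FPKM in the spleens and 35.5 to 80.2 FPKM in ovary. Its difference of 1.10 ± 0.26 dropped under the threshold, to 0.97 and 0.95, with estrus replicate 1 or 2 left out.

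Several other genes of the list had their highest level elsewhere, while Slc11a1, an iron transporter of phagosomes, had its highest mean in spleen (19.4 FPKM, against 12.5 FPKM in vein) and was not called above each tissue. Slc40a1, the iron exporter ferroportin, was at 24.2 to 75.7 FPKM in spleen and 15.2 to 336.0 FPKM in duodenum, which takes up dietary iron, and the groups overlapped. Cd5l, secreted by macrophages, was at 8.31 to 25.7 FPKM, against 45.0 to 104.8 FPKM in liver. Cd163, the scavenger of haemoglobin bound to haptoglobin, was at 1.27 to 4.17 FPKM and 0.41 above the mean of tissues, which was not called. The ferritin chains Ftl1 and Fth1 were abundant in spleen, with means of 1537 and 980 FPKM, but reached 3564 FPKM in liver and 4058 FPKM in duodenum.

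Of 10 genes of marginal zone macrophages, 9 were higher than the mean and 8 above each tissue. This count was 6 without estrus replicate 2, and 4 under both the median and the quantile scaling. Marco, a scavenger receptor of these macrophages, was at 20.1 to 46.0 FPKM with a median of 40.5, and 2.15 ± 0.30 above liver. Timd4, a receptor for phosphatidylserine, was at 25.3 to 43.6 FPKM and 2.13 ± 0.21 above liver. Liver, whose Kupffer cells share both genes, was at 3.91 to 11.6 FPKM and 4.35 to 12.3 FPKM. Treml4 was at 9.55 to 26.1 FPKM and 1.46 above liver, but 0.46 and 0.44 above under the median and quantile scalings, where it was not called. Siglec1, which marks metallophilic macrophages, lay at the threshold with a difference of 1.00 ± 0.21. Cd209b was at 2.56 to 7.56 FPKM and not called, with 22.5 FPKM in 1 vein library.

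Of 20 dendritic cell genes, 15 were higher than the mean and 9 above each tissue. Itgax, the integrin CD11c, was at 26.2 to 36.3 FPKM and 2.02 ± 0.18 above duodenum. Xcr1, the chemokine receptor of cross-presenting dendritic cells, was at 4.07 to 6.13 FPKM and 1.65 ± 0.11 above duodenum. Clec4a4, an inhibitory lectin of dendritic cells, was at 3.64 to 6.91 FPKM and 2.12 ± 0.07 above duodenum. Ccr6, which B cells also carry, had the largest difference of the list, 3.67. Siglech, a receptor of plasmacytoid dendritic cells that microglia share, was at 11.8 to 15.9 FPKM, above the 6.5 to 9.79 FPKM of cerebrum in every library, but the difference of 0.90 was under the threshold.

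Genes of neutrophils and their granules varied widely among the spleens. Of 22, 17 were higher than the mean and 12 above each tissue, 11 without estrus replicate 2. Ngp, a granule protein made by precursors in the marrow and red pulp, was at 106.4, 390.8 and 80.0 FPKM in the estrus spleens and 39.6, 70.3 and 62.7 FPKM in the diestrus spleens. No other library exceeded 6.66 FPKM. S100a8 and S100a9 form calprotectin. S100a8 was at 96.4, 277.9 and 106.0 FPKM in estrus and 41.8, 53.2 and 59.8 FPKM in diestrus, and S100a9 at 156.1, 496.9 and 167.4 against 64.7, 96.9 and 107.7 FPKM. For Ngp, S100a8 and S100a9 the 3 estrus spleens were above the 3 diestrus spleens, and the test between the phases given below did not call these genes. Elane, the elastase that promyelocytes make, was at 4.39 to 46.8 FPKM and 1.59 ± 0.21 above WAT, and Mpo, the myeloperoxidase of the same stage, at 3.7 to 37.1 FPKM. Ltf and Lcn2 are granule genes that epithelia also express, and both were highest in uterus. Lcn2 was at 12.0 to 104.7 FPKM in spleen and 10.2 to 3989 FPKM in uterus.

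The windows of S100a8 (chr3:90668821-90669120, plus strand) and Elane (chr10:79886062-79886361, plus strand) are shown because their list had the largest share with the PU.1 letters, here in capitals. The letters lie 172 bases before the start of S100a8, on the strand opposite to the one printed, and 85 bases before that of Elane. The factor's own gene, Spi1, was at 78.6 to 94.3 FPKM in spleen and 2.96 ± 0.19 above liver.
S100a8: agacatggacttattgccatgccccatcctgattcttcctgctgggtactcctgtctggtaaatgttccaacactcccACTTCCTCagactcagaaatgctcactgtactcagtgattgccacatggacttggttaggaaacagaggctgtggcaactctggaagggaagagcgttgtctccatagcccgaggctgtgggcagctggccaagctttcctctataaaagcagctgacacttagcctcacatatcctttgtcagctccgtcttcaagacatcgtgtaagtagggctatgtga
Elane: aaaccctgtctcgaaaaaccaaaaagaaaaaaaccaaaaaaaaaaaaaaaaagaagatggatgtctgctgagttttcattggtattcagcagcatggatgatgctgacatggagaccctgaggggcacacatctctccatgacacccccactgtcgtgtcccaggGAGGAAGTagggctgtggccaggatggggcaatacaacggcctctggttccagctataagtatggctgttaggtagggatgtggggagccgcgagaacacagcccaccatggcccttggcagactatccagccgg

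The list of red cell precursor genes had the largest summed level of the spleen lists. Most of it came from the globin genes Hba-a1, Hbb-bs, Hba-a2 and Hbb-bt, with means of 16078, 10991, 6540 and 1756 FPKM in spleen. Of 32, 27 were higher than the mean and 23 above each tissue, with a median difference of 3.80. The count above each was 21 without estrus replicate 2 and 18 under quantile normalization. The summed level was 21220 to 61740 FPKM in spleen, against a mean of 7473 FPKM in vein, the next tissue. Hba-a1, an alpha globin gene, was at 10266 to 26292 FPKM with a median of 13845, and 2.43 ± 0.74 above vein (adjusted p = 0.0124, limma). Hbb-bs, a beta globin gene, was at 6741 to 18803 FPKM and 2.26 ± 0.76 above vein (adjusted p = 0.0306, limma). It was not called without estrus replicate 2 (2.09), diestrus replicate 2 (2.19) or vein estrus replicate 3 (2.17), nor was it or Hba-a1 under quantile normalization (1.73 and 1.70). Reads of Hba-a1 and Hba-a2, and of Hbb-bs and Hbb-bt, are shared between near-identical copies, so their split is uncertain.

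The distance to the nearest tissue varied among the other genes of red cell precursors. Kel, a blood group protein, was at 28.5, 50.1 and 41.2 FPKM in the estrus spleens and 12.4, 47.4 and 15.7 FPKM in the diestrus spleens, and 4.53 ± 0.16 above uterus. Klf1, the erythroid Krüppel-like factor, was at 30.7, 40.4, 30.2, 8.16, 51.3 and 12.9 FPKM, and 2.84 ± 0.17 above liver. Gata1, the factor of red cell and platelet precursors, was at 7.14 to 27.2 FPKM and 2.27 ± 0.13 above ovary. Diestrus replicates 1 and 3 were the lowest of the 6 for Kel, Klf1 and Gata1 alike. Epor, the erythropoietin receptor, was at 5.15 to 21.5 FPKM and 1.16 above WAT, but 0.90 and 0.79 under the median and quantile scalings, where it was not called. Car2, Aqp1 and Ank1, which other organs use, were highest in stomach, kidney and skeletal muscle.

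Of 28 windows of erythroid genes, 10 held AGATAA (35.7%), as did 6 of 19 of megakaryocyte genes (31.6%), against 11.2% of all windows and 7.64% of those of genes fitted. Those of Hbb-bs (chr7:103827879-103828178, minus strand) and Alas2 (chrX:150547167-150547466, plus strand) are shown for this motif, in capitals. It lies 210 bases before the start of Hbb-bs, and 86 bases before that of Alas2 on the opposite strand. The window of Hbb-bs also holds CCACACCC, the only erythroid window of the 28 to do so. Alas2, which makes the first step of haem synthesis in red cell precursors, was at 72.5 to 256.6 FPKM and 2.53 ± 0.44 above vein.
Hbb-bs: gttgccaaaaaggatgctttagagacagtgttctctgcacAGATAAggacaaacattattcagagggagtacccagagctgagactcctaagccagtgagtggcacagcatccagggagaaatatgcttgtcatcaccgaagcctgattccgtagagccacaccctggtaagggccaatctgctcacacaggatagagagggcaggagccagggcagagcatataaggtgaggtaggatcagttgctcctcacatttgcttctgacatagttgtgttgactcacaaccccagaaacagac
Alas2: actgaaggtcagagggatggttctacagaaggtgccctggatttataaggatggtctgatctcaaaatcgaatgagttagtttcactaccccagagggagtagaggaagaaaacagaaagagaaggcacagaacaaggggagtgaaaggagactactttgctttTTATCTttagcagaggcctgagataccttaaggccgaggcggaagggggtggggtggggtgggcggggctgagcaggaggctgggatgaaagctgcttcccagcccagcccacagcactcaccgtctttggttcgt

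Of 22 genes of megakaryocytes and platelets, 16 were higher than the mean and 4 above each tissue (18.2%, against 4.8% of genes fitted). The count above each was 3 without estrus replicate 2 and 7 with a pseudocount of 0.1. Nfe2, a factor needed to form platelets, was at 7.28 to 32.5 FPKM and 3.07 ± 0.14 above liver. Ppbp, a platelet chemokine, was at 49.4 to 145.5 FPKM in spleen and reached 104.1 FPKM in another library. Its difference of 1.47 ± 0.49 to vein (adjusted p = 0.0261, limma) was not called without spleen estrus replicate 1 (1.34), spleen estrus replicate 2 (1.33) or vein estrus replicate 3 (1.32). Pf4 was at 26.3 to 70.7 FPKM, overlapping the 17.7 to 50.8 FPKM of vein. Vwf, which endothelium makes, was at 1.59 to 5.11 FPKM, far below the 45.8 to 92.0 FPKM of vein.

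The stroma and its positional factors were mixed. Of 23 genes, 14 were higher than the mean, 4 lower and 8 above each tissue. Tlx1, the homeobox gene without which no spleen forms, was at 12.8, 14.2 and 7.77 FPKM in the estrus spleens and 8.82, 8.2 and 10.8 FPKM in the diestrus spleens. No other library exceeded 0.38 FPKM, and the difference to heart was 3.22 ± 0.06 (adjusted p = 1.35e-60, limma). Nkx2-3, which also patterns the spleen, was at 7.32 to 11.3 FPKM in spleen and 7.22 to 15.5 FPKM in duodenum. Nkx2-5 was at 3.8 to 6.4 FPKM in spleen and 66.4 to 72.3 FPKM in heart, and Wt1 at 1.46 to 6.44 FPKM in spleen with its highest mean, 39.5 FPKM, in ovary. Of these 4 factors, Tlx1 alone was above each tissue.

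The stromal chemokines were among the highest genes of their lists. Cxcl13, which draws B cells into follicles, was at 270.8 to 363.0 FPKM and 4.91 ± 0.46 above duodenum, where it was at 2.0 to 113.2 FPKM. Its receptor Cxcr5 was at 99.6 to 121.8 FPKM and 5.16 ± 0.32 above duodenum. Ccl19 and Ccl21a draw T cells through Ccr7. Ccl19 was at 155.7 to 290.9 FPKM and 4.03 ± 0.42 above vein. Ccl21a was at 764.9 to 1233 FPKM and 2.37 ± 0.56 above ovary. Reads of both can be split with near-identical copies, Ccl19-ps1 and Gm1987, so their levels are uncertain. Madcam1, an addressin of the marginal sinus, was at 21.0 to 34.7 FPKM and 2.57 ± 0.20 above duodenum. Coch, a secreted protein of stromal cells, was at 141.1 to 279.9 FPKM and 3.81 ± 0.30 above cerebrum.

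Of 53 chemokines and receptors, 30 were higher than the mean, 5 lower and 17 above each tissue. Cxcl14 was below each tissue, at 0 to 0.11 FPKM where liver, the lowest of the others, had a mean of 1.39 FPKM. Ccl25 was at 2.09 to 2.81 FPKM against 315.8 to 693.2 FPKM in duodenum, its known source in the gut.

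Genes of MHC class II presentation were high in spleen, and their distance to duodenum varied. All 14 were higher than the mean, with a median difference of 4.53, and 10 were above each tissue, 7 under the median scaling. Cd74 was at 4496 to 5242 FPKM against 1478 to 2374 FPKM in duodenum, a difference of 1.37 ± 0.29. H2-Aa was at 1478 to 1762 FPKM, against 498.2 to 1145 FPKM in duodenum, and was called as well. Under the median scaling the differences of both were 0.96 and 0.80 and were not called. H2-Ob, which B cells use to adjust peptide loading, was at 182.2 to 217.1 FPKM and 5.22 ± 0.42 above duodenum. Ciita, the factor that switches these genes on, was at 41.9 to 52.3 FPKM and 2.25 ± 0.22 above duodenum.

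Of 18 Toll-like receptors and partners, 13 were higher than the mean and 9 above each tissue. Cd180, a receptor of B cells related to Tlr4, was at 60.0 to 86.4 FPKM and 4.51 ± 0.27 above duodenum. Tlr9 and Tlr7 sense DNA and RNA in endosomes. Tlr9 was at 19.7 to 28.5 FPKM and 3.69 above duodenum, and Tlr7 was at 14.9 to 23.6 FPKM and 3.05 above WAT. Unc93b1, which carries them to the endosome, was at 257.2 to 272.0 FPKM. Cd14 and Tlr4, which take part in sensing bacterial lipopolysaccharide at the cell surface, were not set apart. Cd14 was 3.49 lower in spleen than in uterus, and Tlr4 was 0.69 lower than in stomach.

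Of 43 transcription factors of blood cells, 39 were higher than the mean and 31 above each tissue, with a median difference of 3.30. Pax5, which fixes B cell identity, was at 117.5 to 129.7 FPKM and 5.41 ± 0.33 above duodenum. Spib was at 175.1 to 227.8 FPKM and 4.37 ± 0.31 above duodenum, and Ikzf1, of all lymphoid lineages, was at 110.6 to 149.4 FPKM and 4.30 ± 0.29 above it. Pou2af1, the partner of Oct factors at octamers, was at 143.8 to 200.7 FPKM and 3.55 ± 0.29 above duodenum. Klf2, which lymphocytes share with endothelium, was at 185.4 to 231.4 FPKM and 1.31 ± 0.24 above heart, and 0.84 above and not called under the median scaling. Gata2, Gata3 and Zeb2 were highest in uterus, kidney and cerebrum.

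**Figure D4:**
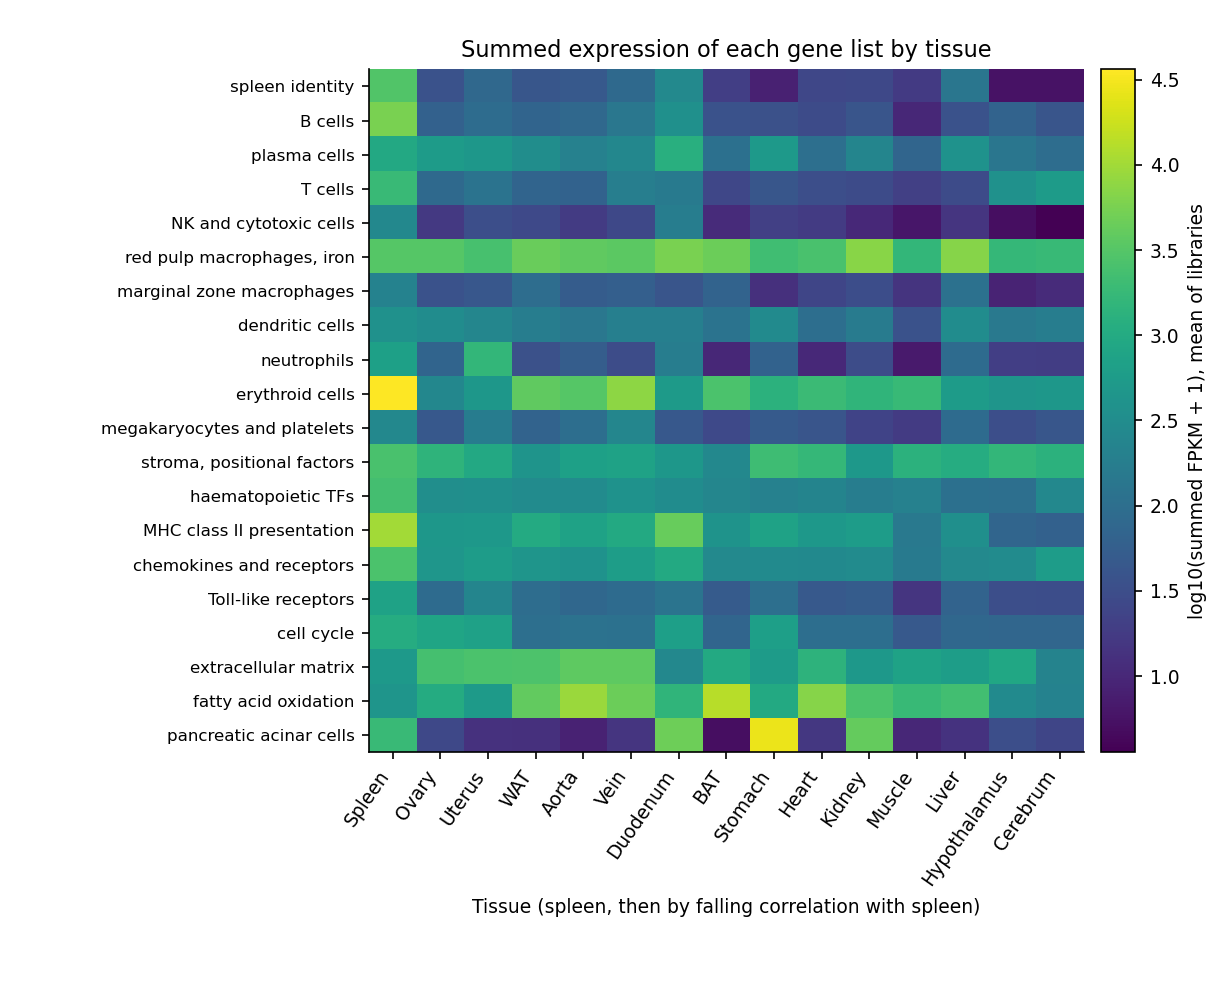
Summed FPKM of each list as log10(sum + 1), averaged over the libraries of each tissue, with spleen first and then tissues by falling correlation with spleen. The acinar sum of spleen comes from estrus replicate 2 (11230 FPKM, 13.7 to 42.1 FPKM in the other 5), and plasma cell and iron genes are as high or higher in other tissues.

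All 40 cell cycle genes were higher in spleen than the mean of tissues, against 20.9% of genes fitted, with a median difference of 2.54. Only Mki67 and Rrm2 were above each tissue, a share of 5% that is near the 4.8% of all genes fitted. Ovary was nearest for most of the 40. Mki67, a marker of dividing cells, was at 38.5 to 58.0 FPKM and 1.31 ± 0.26 above stomach, and 0.91 above and not called under the median scaling. Rrm2, a subunit of ribonucleotide reductase, was at 27.9 to 55.9 FPKM, while 1 library outside spleen reached 43.2 FPKM. Pcna, the sliding clamp of DNA replication, was at 124.3 to 159.1 FPKM and 0.66 above ovary, which was not called.

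The lists held 181 of the 829 genes above each tissue (21.8%). The farthest of the other 648, beside Siglecg, were named after their values were seen. They were led by genes of lymphocytes and of leukocytes at large. Btla, an inhibitory receptor of lymphocytes, was at 101.9 to 163.1 FPKM and 4.94 ± 0.33 above duodenum. Ltb, lymphotoxin beta, with which lymphocytes act on stromal cells, was at 216.5 to 310.9 FPKM and 4.82 ± 0.36 above duodenum. Ptprc, the pan-leukocyte antigen CD45, was at 236.4 to 290.5 FPKM and 4.12 ± 0.29 above duodenum. Arhgdib, an inhibitor of small GTPases in blood cells, was at 670.6 to 840.6 FPKM and 4.12 ± 0.23 above vein.

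Spleen was below each of the 14 tissues for 45 genes, 0.26% of those fitted, and 32 of these had 1 FPKM or more (0.255% of the 12536). For 29 of the 32, all 6 spleen libraries were below all others, where 1.1% of all genes fitted and 1.17% of the 12536 had no overlap in this direction. The count of 32 was 92 under the median scaling and 67 under quantile normalization. The 8 named here are those farthest below without overlap, and most encode enzymes of metabolism and detoxification. Gstm1, a glutathione transferase, was at 23.2 to 25.0 FPKM in 5 spleens and 34.6 FPKM in estrus replicate 2, and 2.73 below skeletal muscle, the lowest of the others at 175.3 FPKM. Me1, the malic enzyme that feeds fatty acid synthesis, was at 0.98 to 2.96 FPKM and 2.41 below uterus. Gsta4 was 1.78 below skeletal muscle, Pcx, pyruvate carboxylase, was 1.75 below heart, and Pdk2, a kinase of pyruvate dehydrogenase, was 1.59 below uterus. Tpi1, a step of glycolysis, was at 48.5 to 54.0 FPKM, where ovary, the lowest of the others, had a mean of 149.3 FPKM. Trp53inp2 was 1.65 below duodenum, and Pcsk6, at 0.08 to 0.63 FPKM in spleen, was 2.04 below cerebrum.

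Fatty acid oxidation was low as a group. Of 20 genes, 18 were lower than the mean, with a median difference of -2.02, and none was below each tissue. Acadm, the medium-chain acyl-CoA dehydrogenase, was at 20.7 to 25.0 FPKM in spleen, 713.2 to 1074 FPKM in BAT and a mean of 13.8 FPKM in cerebrum. Hadh, of the following steps, was at 19.6 to 22.7 FPKM and 2.85 below the mean of tissues. The muscle isoform Cpt1b was at 2.05 to 2.85 FPKM, whereas Cpt1a, the liver isoform of the gate to the pathway, was at 15.7 to 30.1 FPKM and 0.11 above the mean, which was not called.

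Of 25 genes of the extracellular matrix, 15 were lower than the mean and 1 higher, with a median difference of -1.37. The 1 higher was Bgn, a small proteoglycan, at 169.5 to 189.5 FPKM in 5 spleens and 230.3 FPKM in estrus replicate 2, and 1.30 above the mean. Under the median scaling 19 were lower and 0 higher. Col1a1 was at 9.99 to 17.9 FPKM in spleen and 56.6 to 581.7 FPKM in uterus, and Sparc at 85.1 to 125.0 FPKM in spleen with a mean of 809.5 FPKM in WAT. Genes of adipocytes (10 of 10), skeletal muscle fibres (8 of 10), hepatocytes (8 of 10), neurons (6 of 10), smooth muscle (6 of 10) and mesothelium (4 of 10) were lower than the mean of tissues, and none was higher.

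The pancreatic acinar list rested on 1 library. Of 27 genes fitted, 15 were higher in spleen than the mean of tissues. Without estrus replicate 2 the count was 0 of 23, since only 23 then reached 1 FPKM in any tissue. The median difference was 1.26 with the library, over the 27 genes, and -0.13 without it, over the 23. Amy2a5, an amylase, was at 2688 FPKM in estrus replicate 2, 5.46 FPKM in estrus replicate 1 and 0 in the other 4. Ctrb1, a chymotrypsinogen, was at 1532 FPKM in estrus replicate 2 and at 0 to 2.08 FPKM in the other 5. No acinar gene was above each tissue.

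The 5 genes whose pattern over the 15 tissue means was most like that of Spic (Pearson's r of log2(FPKM + 1), a description over 15 points) were Gm46353 (0.971), Cd300a (0.969), Nfe2 (0.964), Serpina3i (0.964) and Cd300c (0.963). Among the 5 for Tlx1 were Gm1987 (0.997), Prg3 (0.996), Crisp3 (0.995) and Ms4a3 (0.995). Gm1987, a near-identical copy of Ccl21a, was listed at 31.6, 0 and 29.8 FPKM in the estrus spleens and at 0, 32.3 and 0 FPKM in the diestrus spleens, so its level is uncertain.

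Among the 6 spleens, genes of 1 list often shared their highest libraries. For each gene the 3 highest of the 6 libraries were noted. Estrus replicates 1 and 2 and diestrus replicate 3 were the 3 highest for 10.2% of the 12536 genes, but for 15 of 21 red pulp genes, 16 of 24 cytotoxic cell genes, 9 of 10 genes of marginal zone macrophages and 7 of 21 stromal genes, Tlx1 and Wt1 among them. They were so for none of the 30 T cell genes and none of the 31 B cell genes. The summed level of 10 mesothelium genes was also highest in those 3 libraries, at 19.1, 20.8 and 8.51 FPKM against 4.02 to 6.61 FPKM in the others, and its part in the pattern was not tested. Estrus replicates 2 and 3 and diestrus replicate 2 were the 3 highest for 4.68% of genes, but for 26 of 32 erythroid genes and 13 of 40 cell cycle genes. Estrus replicates 1 to 3 were the highest for 3.31% of genes and for 18 of 22 neutrophil genes. Estrus replicate 3 with diestrus replicates 1 and 3 were the highest for 6.8% of genes and for 12 of 30 T cell genes. These counts describe the 6 libraries, with no test.

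**Figure D5:**
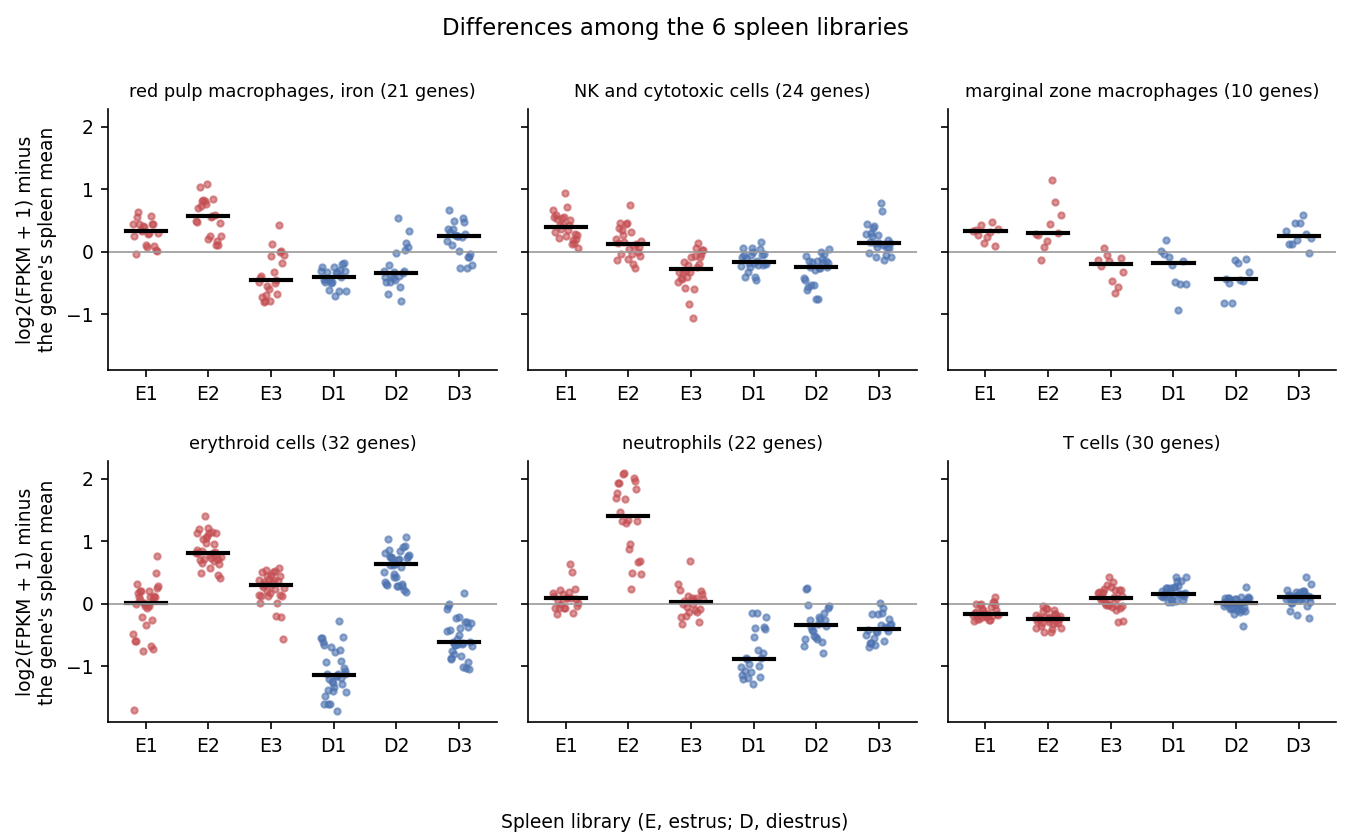
Differences of single genes from their own spleen mean (log2(FPKM + 1), points) in the 6 spleen libraries for 6 lists, with red for estrus, blue for diestrus and a black line at the median of the list. Red pulp, cytotoxic and marginal zone genes share their 3 high libraries (E1, E2 and D3), erythroid genes are highest in E2, E3 and D2, and T cell genes lie closest to 0 of the lists shown.

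The cycle was asked of spleen in relation to the other tissues, as the difference of spleen to the mean of 14 in estrus minus that in diestrus. Of 17279 genes, 9 were higher in estrus (0.0521%) and 2 in diestrus (0.0116%), while 332 (1.92%) had an unadjusted p under 0.05. The 9 include Hemgn (1.26 ± 0.23), Rhd (1.09 ± 0.23) and Btnl10 (1.07 ± 0.19), the first 2 of which are genes of red cell precursors, and Chil3 (1.52 ± 0.23), of neutrophil precursors. Each SE comes from the spread in all tissues, so it is not the spread between the spleens. For Hemgn the estrus spleens were at 29.0, 56.5 and 36.7 FPKM and the diestrus spleens at 6.97, 45.6 and 11.9 FPKM, so the phases overlapped. For Chil3 they were at 18.4, 52.2 and 11.5 FPKM against 5.07, 6.91 and 9.58 FPKM, without overlap. Cela2a and Amy2a5 are acinar genes and were high in estrus replicate 2 alone. Without that replicate 5 genes were called and 3 of the 11 remained (Vmn2r96, LOC100043921 and Ccl19-ps1). The count was 53 without estrus replicate 1, 49 without estrus replicate 3, 45 without diestrus replicate 2, 3 without diestrus replicate 1 and 8 without diestrus replicate 3, and with a pseudocount of 0.1 it was 1 and none of the 11 remained.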

How the data were processed

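RNA-sequencing of 15 tissues from mice in estrus and diestrus gave 90 libraries, 3 for each tissue and phase. After SOAPnuke had cleaned the reads, the authors used Bowtie2 2.2.5 on the build GRCm38.p5, estimated abundance with RSEM 1.2.8 and deposited FPKM without read counts (per the paper and the submitters' processing notes). RSEM divides reads that match several near-identical genes. The authors compared the phases within tissues with DEGSeq, and those comparisons were not used here.

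RefSeq (GRCm38.p6) gave a symbol to 20265 of 20414 gene identifiers. Values were analysed as log2(FPKM + 1), a scale that understates differences of low genes. One linear model in limma 3.58.1 (R 4.3.3) with 15 tissue means, an intensity trend and no block was fitted to 89 libraries and 17279 genes whose mean reached 1 FPKM in any tissue. BAT estrus replicate 3, of about 0.0632M reads, was left out. Spleen was contrasted with the mean of the 14 tissue means and with each tissue, and, with tissue and phase means, between the phases. Calls needed a log2 difference of 1 and an adjusted p of 0.05 (Benjamini-Hochberg).

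Depth was approximated from the smallest steps between values of 784 short genes. Only 53.8% to 64.7% of the low values of a spleen library came out whole within 0.2 reads, so no count test was run. In that approximation the depth limits genes near 1 FPKM most. The age of the mice is 10 weeks in the labels, and the paper gives a lower one and names the strain C57BL/6J.

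The genes and lists were chosen with earlier results of these data known. Named are the 12 genes farthest above and the 8 farthest below the nearest tissue without overlap of libraries, the 3 most abundant and the 2 farthest called members of each spleen list, leading members of the other lists, genes fixed for their known role in spleen, and the 5 genes most like Spic and Tlx1. Some genes that this rule names are not reported here. Further list members are given as examples chosen after their values were seen. Lists were described by counts and medians without a test. Replicate numbers were not taken as pairs: of 83 pairs of a spleen library with the same-numbered library of another tissue, 14 had a correlation of deviations over 0.1, and in 0 tissues did every pair. The median correlation was 0.033 for pairs of the same number and -0.018 for pairs of different numbers. Whether the numbers link libraries of 1 mouse was thus not settled. No libraries held identical values. Alternatives covered the pseudocount, the filter, the scale, single libraries left out, a replicate block, fits of spleen with 1 tissue at a time, the variance model and the limits. Summaries were made in Python 3.11.15 (numpy 2.4.6, pandas 2.3.3) and plots with matplotlib 3.10.9.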

Additional observations from a re-analysis of the deposited data

Results flagged for a closer look

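Values of 1 spleen library lay far from the other 5 in 12 cases (Dixon's test, which chance passes in about 1 of 20 groups). As 128 genes are named and every list was summed, some of these cases can be due to chance. Spleen estrus replicate 2 was high for the summed FPKM of pancreatic acinar genes (11200, where the others had 13.7 to 42.1), of extracellular matrix genes (634, others 447.0 to 499.0) and of pancreatic islet genes (0.79, others 0.17 to 0.34). It was also high for Amy2a5 (2690 FPKM), Ctrb1 (1530 FPKM), Prss2 (438 FPKM), Cpa1 (359 FPKM) and Ins2 (0.29 FPKM, others at 0), and, outside the pancreas lists, for Bgn (230 FPKM, others 169.5 to 189.5) and Gstm1 (34.6 FPKM, others 23.2 to 25.0). It was low for Cd79b (397 FPKM, others 466.2 to 488.7). Spleen estrus replicate 3 was high for the summed FPKM of chemokines and their receptors (2980, others 2426 to 2620).

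For 11 genes the difference of spleen to the other tissues was not the same in estrus and diestrus, by the limma test of that difference. That test uses a spread shared by all tissues. For the 10 given here the differences, estrus minus diestrus on the log2 scale, were 4.81 for Amy2a5, 3.98 for Cela2a, 2.40 for H4c18, 1.95 for LOC100043921, 1.52 for Chil3, 1.26 for Hemgn, 1.09 for Rhd and 1.07 for Btnl10, and -1.84 for Vmn2r96 and -2.47 for Ccl19-ps1. H4c18 was at 3.98 to 4.94 FPKM in the estrus spleens and at 0 in the diestrus spleens. Vmn2r96, a vomeronasal receptor gene, was at 0.77 to 2.23 FPKM in estrus and 4.11 to 11.9 FPKM in diestrus. Ccl19-ps1 was at 0, 26.4 and 0.17 FPKM in estrus and 21.6, 9.2 and 21.3 FPKM in diestrus, and as a near-identical copy of Ccl19 its level is uncertain. For Amy2a5 and Cela2a, 1 estrus library held nearly the whole signal. Of the 11 genes, Vmn2r96, Chil3 and H4c18 had no overlap of the phases in spleen.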

How the results depend on the processing

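The counts of 3611 higher, 1353 lower, 829 above each and 32 below each (genes of 1 FPKM or more in spleen) stayed within 1.5 times under most alternatives. The exceptions were genes lower, 2075 with libraries scaled to 1 median, and genes below each tissue, 92 under that scaling, 67 under quantile normalization and 49 with a pseudocount of 0.1. A minimum difference of 2 left 1242, 279, 419 and 2, since it asks for more. Without 1 spleen library at a time the counts were 3593 to 3629, 1348 to 1360, 817 to 837 and 31 to 34. With the replicate number as a block (replicate block), they were 3611, 1357, 829 and 32, and the count between the phases was 11, so it changed none of these counts by more than 4. Whether libraries of the same replicate number came from 1 mouse is not given by the labels, and the correlations did not settle it.

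The count between the phases, 11, was 1 with a pseudocount of 0.1 and ranged from 3 to 53 without 1 spleen library. Of 127 named genes with a fit, 92 had the same call in all 21 settings. The difference to the nearest tissue changed sign for Amy2a5 (-0.46 with a pseudocount of 0.1, and -1.02 to 1.26 without single libraries), Ctrb1 (-0.85 to 1.27), both negative without spleen estrus replicate 2, Gm46353 (-0.26) and Ube2c (-0.11), the last 2 under median scaling. For the scalings and the pseudocount, the cause was not tested. FPKM without counts limits what can be said of genes near 1 FPKM, and library sizes could only be approximated.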
